A study of Mus musculus with 6 samples.

Results

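The genes described here encode pre-mRNA splicing factors, chosen by symbol. They comprise the SR proteins (Srsf), the hnRNP proteins (Hnrnp), the SF3A and SF3B subunits (Sf3a, Sf3b), the U2AF subunits, the Luc7-like proteins, the small nuclear ribonucleoprotein (snRNP) proteins named Snrpa to Snrpg, the PRPF proteins and the SRRM and SREK1 proteins. The rule found 77 of the 24672 genes in the deposited table, and 72 of them had a mean of at least 1 FPKM and were tested. FPKM counts fragments scaled to transcript length in kilobases and to library size in M (mega) fragments. The libraries came from cultured C57BL/6 mouse cells of more than 20 passages, with 3 libraries of cells labelled as germline stem cells of females (FGSC) and 3 of their differentiated form (Dif-FGSC). FGSC grew on inactivated STO fibroblasts with 10 ng/mL LIF, 20 ng/mL EGF, 10 ng/mL bFGF and 10 ng/mL GDNF. Dif-FGSC grew on inactivated granulosa cells with 0.1 µmol/L retinoic acid, 10 ng/mL BMP4 and 10 ng/mL bFGF. Feeder cells and growth factors thus changed along with retinoic acid, and their effects cannot be told apart. By its title, the series concerns the onset of meiosis under retinoic acid and the chromatin structure of these cells.

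Introns are removed by the spliceosome, a machine that assembles on each intron from snRNPs, each a small nuclear RNA with its proteins. The U1 snRNP marks the start of the intron. U2AF and SF1 mark its end and branch point and are followed by the U2 snRNP with SF3A and SF3B, after which the U4/U6.U5 tri-snRNP joins and PRPF8 holds the catalytic core. SR proteins mostly promote the use of exons to which they bind and hnRNP proteins often oppose it, and many genes of both families limit their own protein by splicing in an exon that sends the transcript to decay. In the mouse, Srsf10 is needed in spermatogonia and Srsf3 in maturing oocytes.

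Markers of the labelled cell type were nearly absent from these libraries. Of 12 germ cell markers, 9 stayed below 0.1 FPKM in every library, 6 of them (Dazl, Gfra1, Sycp3, Dmc1, Nanos3 and Figla) were listed at 0 throughout, and the highest single value was 0.749 FPKM for Zbtb16. The summed germ cell markers ran from 0.0317 to 0.0696 FPKM in FGSC and from 0.547 to 0.957 FPKM in Dif-FGSC. Most of the Dif-FGSC sum was Zbtb16 alone, listed at 0 in every FGSC library and at 0.4325, 0.4781 and 0.749 FPKM in Dif-FGSC. Summed fibroblast markers ran from 0.337 to 0.639 and from 0.164 to 0.239 FPKM, with 9 of 10 below 0.1 FPKM in every library, and granulosa markers from 0.663 to 0.843 and from 0.474 to 0.675 FPKM, with Foxl2 at 0. All 10 blood cell markers were measured, with sums of 601 to 632 FPKM in FGSC and 725 to 738 FPKM in Dif-FGSC; 6 passed the test as higher and 0 as lower. The 12 mast cell markers summed to 587 to 630 and 745 to 752 FPKM, nearly all of it from Cpa3, Gata2, Kit and Srgn. Of the 5 tested, Gata2, Kit, Srgn and Mcpt8 were higher and Cpa3 was not called. Tpsb2 was at 0 in every library, and Fcer1a, Ms4a2, Hdc and Tpsab1 reached at most 0.0431, 0.174, 0.149 and 0.0212 FPKM in any library. These levels moved with the groups, their part in the splicing factor differences was not tested, and FGSC and Dif-FGSC name the labels of the libraries throughout. In bulk RNA, a smaller share of cells of a type and less RNA per cell cannot be told apart.

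Splicing factor genes were more often lower than higher in Dif-FGSC. By limma on log2(FPKM + 1), 36 of the 72 tested genes (50%) were lower at a Benjamini-Hochberg adjusted p under 0.05, against 28.6% of all 9162 genes tested. Another 16 (22.2%) were higher, against 36.5% of all genes, and 20 were not called. The share called in either direction, 72.2%, was near the 65.1% of all genes. The median log2 difference (Dif-FGSC minus FGSC) was -0.12 over the tested splicing factor genes and 0.03 over all genes. Luc7l3 and Srek1, among the 16 higher, were listed at 0 in every FGSC library and passed the filter through Dif-FGSC alone. Without these genes 14 were higher and the median was -0.16. In 56 genes (77.8%) the 3 values of one group did not overlap those of the other, against 70.7% of all genes. With a further condition of at least 1.2-fold in FPKM, 26 genes (36.1%) were lower and 11 (15.3%) higher, against 17.8% and 25.8% of all genes. With 3 libraries against 3, an exact permutation test of a single gene cannot go below p = 0.1. The labels do not say that libraries of a group were separate cultures, so the spread behind each p-value may be technical.

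**Figure D1:**
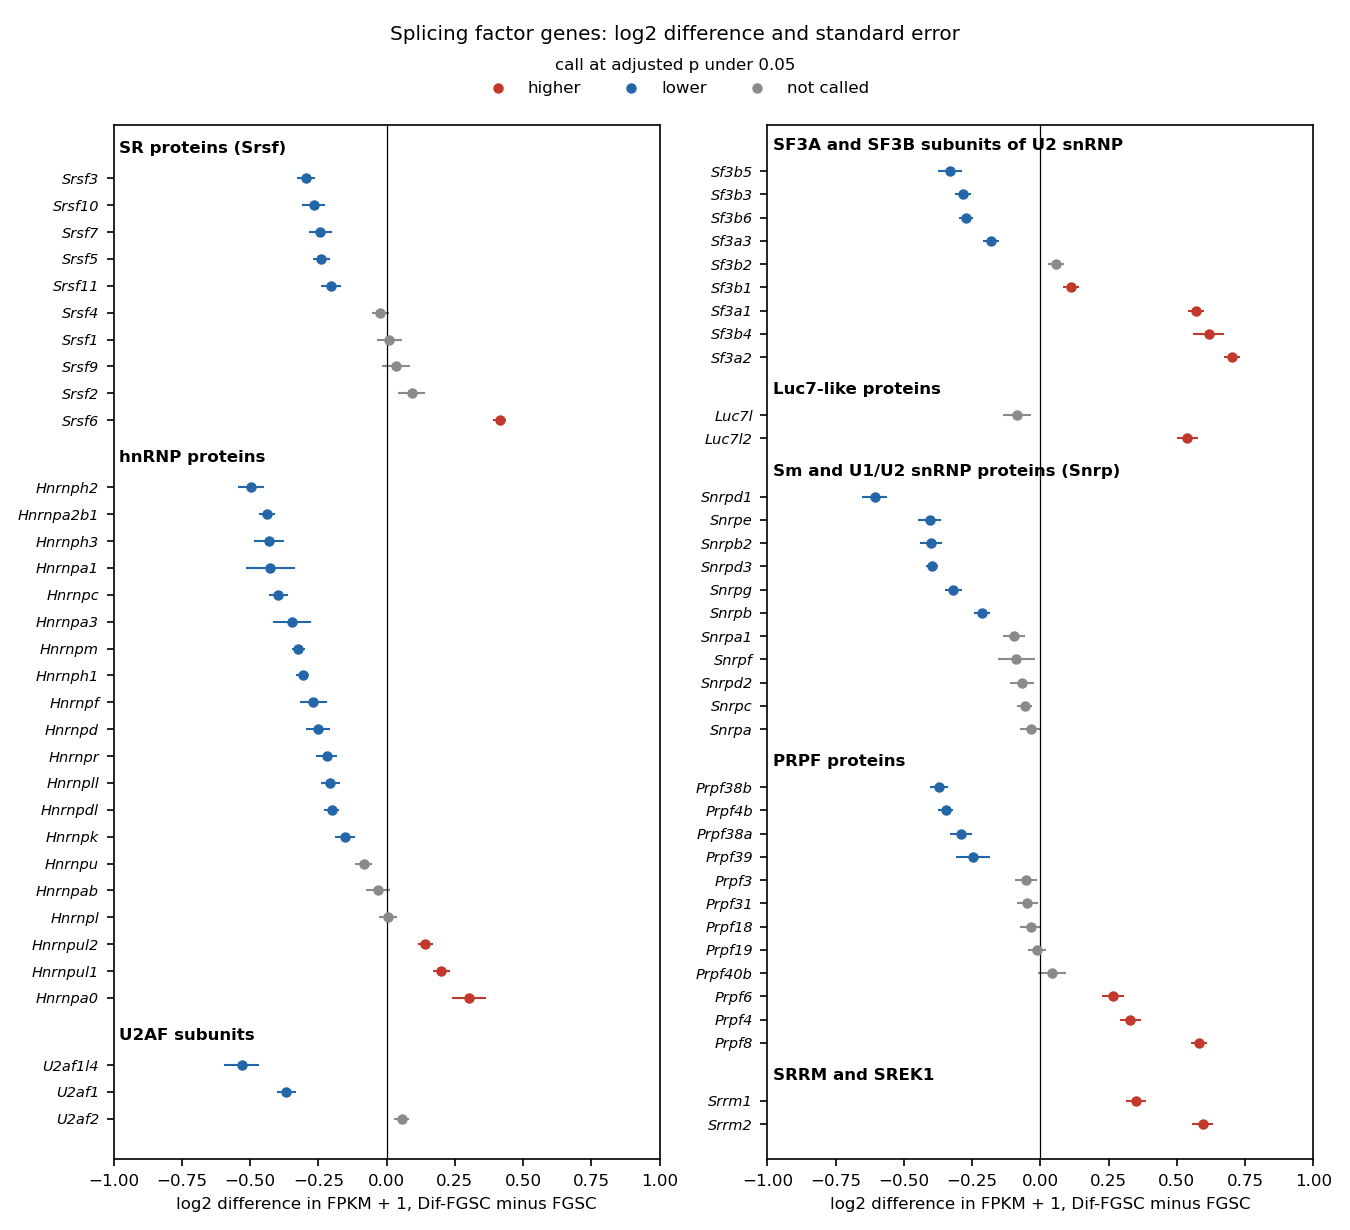
Log2 difference in FPKM + 1 (horizontal axis, Dif-FGSC minus FGSC, bars are the standard error of the fit) for the tested splicing factor genes above 0 in every library, with 1 gene not shown, grouped by family; red is higher, blue lower and grey not called at an adjusted p under 0.05. The Snrp and hnRNP families lie mostly to the left of 0, with 6 of 11 and 14 of 20 genes lower. The SF3 genes lie on both sides, with 4 higher and 4 lower. Over all tested genes, 36.5% were higher and 28.6% lower.

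The families with structural subunits at fixed places in the spliceosome did not all differ in the same direction. Beside each family count below stand the 36.5% of all tested genes that were higher and the 28.6% that were lower. The 9 genes of SF3A and SF3B, which hold the U2 snRNP at the branch point, split into 4 higher, 4 lower and 1 not called. The trimeric SF3A complex itself was split, with Sf3a1 and Sf3a2 higher and Sf3a3 lower. The 250 bases before the start site of these 3 genes are shown because the subunits belong to the same complex and differed in direction (RefSeq, GRCm38.p6, all on the plus strand; Sf3a1 at chr11:4160104-4160353, Sf3a2 at chr10:80798485-80798734 and Sf3a3 at chr4:124714611-124714860). Capitals mark the letters of an ETS motif (CCGGAAG, either strand) and of a GC box (GGGCGG, either strand).
Sf3a1: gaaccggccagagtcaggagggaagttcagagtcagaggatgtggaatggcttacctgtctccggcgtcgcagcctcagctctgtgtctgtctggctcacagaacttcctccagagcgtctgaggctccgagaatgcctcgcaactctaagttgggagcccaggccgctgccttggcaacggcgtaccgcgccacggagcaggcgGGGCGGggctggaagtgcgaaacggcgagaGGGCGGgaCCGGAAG
Sf3a2: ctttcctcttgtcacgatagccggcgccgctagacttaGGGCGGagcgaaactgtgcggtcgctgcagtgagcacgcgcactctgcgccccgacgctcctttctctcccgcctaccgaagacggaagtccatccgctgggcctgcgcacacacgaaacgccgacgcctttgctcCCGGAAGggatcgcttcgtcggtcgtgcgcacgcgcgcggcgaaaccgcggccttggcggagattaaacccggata
Sf3a3: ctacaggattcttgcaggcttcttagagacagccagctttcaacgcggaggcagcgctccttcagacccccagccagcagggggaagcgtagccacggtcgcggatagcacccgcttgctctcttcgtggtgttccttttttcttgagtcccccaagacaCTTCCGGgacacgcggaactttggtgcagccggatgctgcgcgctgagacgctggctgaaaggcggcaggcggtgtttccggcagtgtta
All 3 windows held the ETS letters, beginning 7 bases before the start site in Sf3a1, 76 before it in Sf3a2 and 90 before it in Sf3a3. A GC box stood at 45 and 15 bases before the start in Sf3a1 and at 212 bases before it in Sf3a2, and the Sf3a3 window held none. Over all splicing factor genes, a GC box stood in 66.7% of windows of higher genes and 71.4% of those of lower genes. In windows of genes not called the share was 54.2%. A link between these letters and direction was not tested.

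Sf3a2, the SF3A subunit that contacts the branch-point region through a zinc finger, was listed at 54.0, 53.9 and 51.9 FPKM in the FGSC libraries and 88.7, 87.0 and 85.9 FPKM in the Dif-FGSC libraries. Each Dif-FGSC library was above each FGSC library, with a 1.64-fold ratio of means (log2 difference 0.70, SE 0.029, limma adjusted p = 1.54e-06). Sf3a1, which contacts U1 as well as U2, was at 35.5, 34.1 and 35.9 FPKM in FGSC and 53.1, 53.2 and 51.8 FPKM in Dif-FGSC, again with no overlap (ratio 1.498; log2 difference 0.57, SE 0.031, limma adjusted p = 4.96e-06). Sf3a3, the third subunit, was at 95.2, 99.97 and 99.1 FPKM in FGSC and 85.5, 85.4 and 88.4 FPKM in Dif-FGSC and fell by 11.9% (log2 difference -0.18, SE 0.03, limma adjusted p = 0.00132). Mean levels were 53.2 ± 1.19 FPKM in FGSC and 87.2 ± 1.39 FPKM in Dif-FGSC for Sf3a2 and 98.1 ± 2.57 FPKM in FGSC and 86.5 ± 1.7 FPKM in Dif-FGSC for Sf3a3 (SD, n = 3). The FPKM levels of Sf3a2 and Sf3a3 thus lay close together in Dif-FGSC and apart in FGSC. Sf3a1 lay below both in each group, with means of 35.2 FPKM in FGSC and 52.7 FPKM in Dif-FGSC. Each of these 3 genes has 1 curated RefSeq transcript.

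Within SF3B, Sf3b4 showed the largest rise. Sf3b4, an RNA-binding subunit next to the branch point, was at 73.9, 71.9 and 63.0 FPKM in FGSC and 109.5, 106 and 105 FPKM in Dif-FGSC (ratio 1.54; log2 difference 0.62, SE 0.058, limma adjusted p = 6.45e-05), and the lowest Dif-FGSC value lay above the highest FGSC value. Sf3b1, the large subunit that clamps the branch-point helix and is often mutated in human blood cancers, was at 96.0, 94.3 and 95.4 FPKM in FGSC and 102, 100.5 and 106 FPKM in Dif-FGSC, a rise of 8.16% (log2 difference 0.11, SE 0.029, limma adjusted p = 0.0112). That call did not hold with median-ratio scaling of the libraries (0.08, adjusted p = 0.0573) nor with the trend over transcript length removed, where the difference was -0.08 (adjusted p = 0.0631). Sf3b3, a scaffold subunit, fell from 126 ± 2.92 to 103 ± 2.13 FPKM (-0.28 on the log2 scale, limma adjusted p = 1.11e-04). Sf3b6, the subunit that touches the branch-point adenosine and the most abundant SF3 gene here, was at 178, 181 and 175 FPKM in FGSC and 144, 148 and 149.5 FPKM in Dif-FGSC (log2 difference -0.27, SE 0.027, limma adjusted p = 7.91e-05), with no overlap. Sf3b5, a small subunit, fell from 123 ± 7.35 to 97.2 ± 1.4 FPKM (-0.33 on the log2 scale, limma adjusted p = 3.81e-04). Sf3b2, which binds Sf3b4, was not called, at 133 ± 4.06 FPKM in FGSC and 138 ± 2.25 FPKM in Dif-FGSC (adjusted p = 0.135), and was higher with quantile normalization (adjusted p = 0.00203). Phf5a, the SF3B subunit outside the symbol rule, was not called either, at 63.7 ± 2.79 FPKM in FGSC and 59.8 ± 0.723 FPKM in Dif-FGSC (adjusted p = 0.0664). The 9 SF3 genes summed to 906, 919 and 907 FPKM in FGSC and to 919.7, 918 and 928 FPKM in Dif-FGSC, so the sum differed by 1.01-fold while single subunits moved from 0.793 to 1.64.

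**Figure D2:**
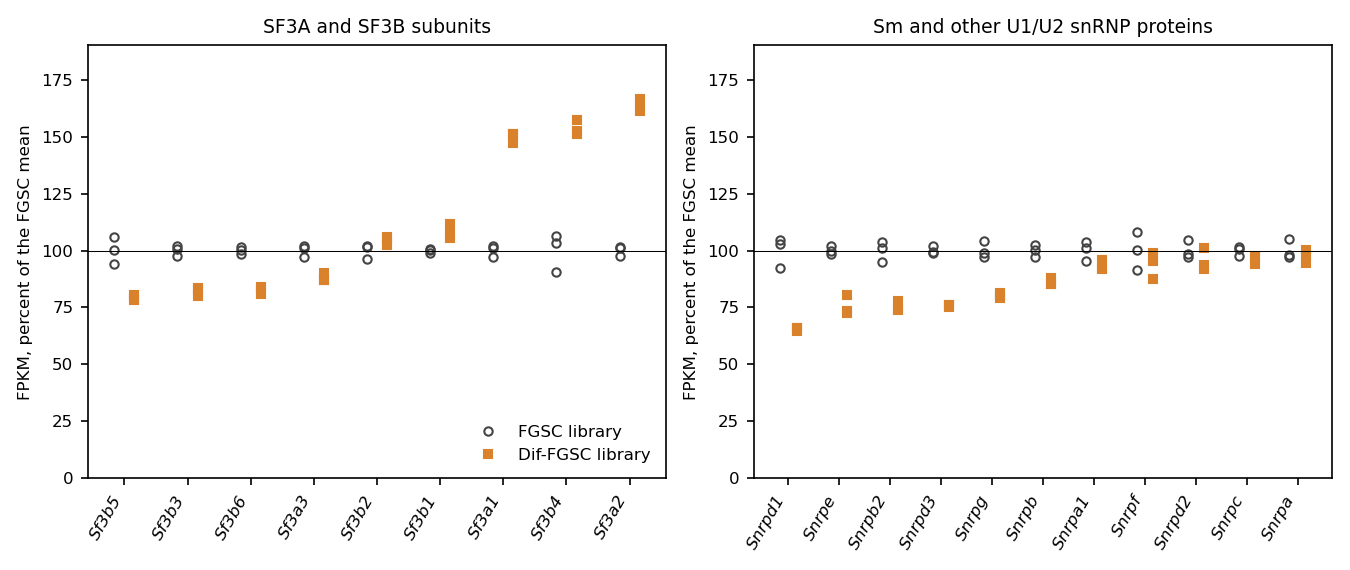
FPKM of each SF3A and SF3B subunit (left) and of each Sm or other U1/U2 snRNP protein gene (right) in every library, as percent of that gene's FGSC mean; open circles are FGSC libraries and filled squares Dif-FGSC libraries. Sf3a1, Sf3b4 and Sf3a2 lie far above 100 percent in Dif-FGSC, and Snrpd1, Snrpe, Snrpb2 and Snrpd3 lie well below it.

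The Snrp genes were lower or not called, and no member was higher. Of 11 genes, 6 were lower, with a median log2 difference of -0.21. The 7 genes of the Sm ring, the ring of proteins that closes around the small nuclear RNA of most snRNPs, gave 5 lower (Snrpd1, Snrpe, Snrpd3, Snrpg and Snrpb) and 2 not called (Snrpd2 and Snrpf). Quantile normalization ended the call of Snrpb (-0.03, adjusted p = 0.297) and called Snrpd2 higher (0.14, adjusted p = 0.0362). The summed Snrp level was 2553, 2533 and 2521 FPKM in FGSC and 2043, 2091 and 2098 FPKM in Dif-FGSC, a ratio of 0.819 with no overlap.

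Snrpd1, encoding Sm D1, had the largest fall among splicing factor genes, at 305, 309.9 and 274 FPKM in the FGSC libraries and 191, 196 and 195 FPKM in the Dif-FGSC libraries (log2 difference -0.61, SE 0.046, limma adjusted p = 2.36e-05). Its highest Dif-FGSC value was far below its lowest FGSC value, and its mean fell by 34.5%. Snrpe, encoding Sm E, had the highest listed value of the family, at 465, 449 and 456 FPKM in FGSC and 331, 336 and 366 FPKM in Dif-FGSC (log2 difference -0.41, SE 0.041, limma adjusted p = 8.89e-05), and did not overlap between groups. Snrpd3, which pairs with Sm B in the ring, was at 280.0, 278 and 287 FPKM in FGSC and 214, 214 and 212 FPKM in Dif-FGSC (log2 difference -0.40, SE 0.024, limma adjusted p = 7.47e-06). Snrpg, the Sm G gene, fell from 428 ± 15.3 to 342 ± 4.4 FPKM (-0.32 on the log2 scale, limma adjusted p = 7.57e-05), and Snrpb, which encodes Sm B and B′, from 290.1 ± 8.19 to 250.2 ± 4.13 FPKM (-0.21 on the log2 scale, limma adjusted p = 4.43e-04). The Sm D2 gene Snrpd2 had 345 ± 14.1 FPKM in FGSC and 329 ± 16.7 FPKM in Dif-FGSC (adjusted p = 0.209), and its groups overlapped, as did those of the Sm F gene Snrpf with 137 ± 11.5 FPKM in FGSC and 129 ± 7.99 FPKM in Dif-FGSC (adjusted p = 0.282). Short transcripts such as these have many processed copies in mammalian genomes, and the sources used here do not say how reads shared with such copies were counted, which leaves these levels uncertain.

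Outside the ring, 1 of the 4 U1 and U2 proteins was lower. Snrpb2, the U2-B″ protein that binds U2 RNA, was at 72.6, 70.8 and 66.6 FPKM in FGSC and 51.8, 52.0 and 54.4 FPKM in Dif-FGSC (log2 difference -0.40, SE 0.039, limma adjusted p = 8.27e-05), with no overlap. Its partner in the U2 snRNP, Snrpa1 (U2-A′), was not called at 54.3 ± 2.34 FPKM in FGSC and 50.7 ± 1.25 FPKM in Dif-FGSC (adjusted p = 0.0587) and was called lower under median-ratio scaling (adjusted p = 0.0256) and without FGSC replicate 3 (adjusted p = 0.0107). For the U1 proteins, Snrpc (U1-C) was at 134 ± 2.73 FPKM in FGSC and 128 ± 2.28 FPKM in Dif-FGSC (adjusted p = 0.101), with a call as lower under median-ratio scaling (adjusted p = 0.0265) and without FGSC replicate 3 (adjusted p = 0.0386), and Snrpa (U1-A) at 43.3 ± 1.85 FPKM in FGSC and 42.2 ± 1.19 FPKM in Dif-FGSC (adjusted p = 0.452).

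The U2AF heterodimer reads the end of the intron, U2af2 the pyrimidine tract and U2af1 the AG. U2af1 was at 54.7, 56.5 and 58.1 FPKM in FGSC and 42.8, 42.9 and 44.8 FPKM in Dif-FGSC and fell by 22.9% (log2 difference -0.37, SE 0.034, limma adjusted p = 6.45e-05). U2af1l4, which encodes a U2af1-like protein able to replace it, had the larger fall, at 24.3, 29.1 and 27.8 FPKM in FGSC and 18.8, 18.4 and 18.0 FPKM in Dif-FGSC (log2 difference -0.53, SE 0.063, limma adjusted p = 2.20e-04). Both genes had every Dif-FGSC value below every FGSC value. U2af2 was at 93.5, 95.2 and 94.7 FPKM in FGSC and 98.8, 100.3 and 95.7 FPKM in Dif-FGSC (adjusted p = 0.113); its groups did not overlap, yet it was not called, and it was called higher with quantile normalization (adjusted p = 0.0168) and with the length trend removed (adjusted p = 0.0349). Sf1, the branch-point protein that binds U2af2 and lies outside the symbol rule, rose from 20.2 ± 0.0553 to 28.2 ± 0.681 FPKM (0.46 on the log2 scale, limma adjusted p = 1.26e-05). It was named after its values were seen.

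The Luc7-like proteins belong to the U1 snRNP and, as in yeast Luc7, bear on which start of the intron is chosen. Luc7l2 was at 7.99, 7.99 and 7.61 FPKM in FGSC and 11.5, 12.1 and 12.0 FPKM in Dif-FGSC and rose 1.51-fold with no overlap (log2 difference 0.54, SE 0.038, limma adjusted p = 1.71e-05). Luc7l was at 9.62, 9.68 and 9.36 FPKM in FGSC and 8.73, 8.45 and 9.68 FPKM in Dif-FGSC, overlapped between groups and was not called (adjusted p = 0.174), though it was called lower without Dif-FGSC replicate 3, its highest Dif-FGSC library (adjusted p = 0.0282). Luc7l3 was listed at 0 in each FGSC library and at 34.5, 32.7 and 36.5 FPKM in the Dif-FGSC libraries. Srek1, a splicing regulator with an arginine-serine domain, had the same form, at 0 in each FGSC library and at 11.3, 11.5 and 11.6 FPKM in Dif-FGSC. A value of exactly 0 can be a failed estimate by the quantification program, so no fold is given for either gene, and both passed the filter on low values through the Dif-FGSC libraries alone. Over the whole table, 7 genes were listed at 0 in every FGSC library with at least 10 FPKM in every Dif-FGSC library, and 2 genes had the opposite form. Without Luc7l3 and Srek1 the splicing factor genes called higher numbered 14 and the median log2 difference was -0.16.

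**Figure D3:**
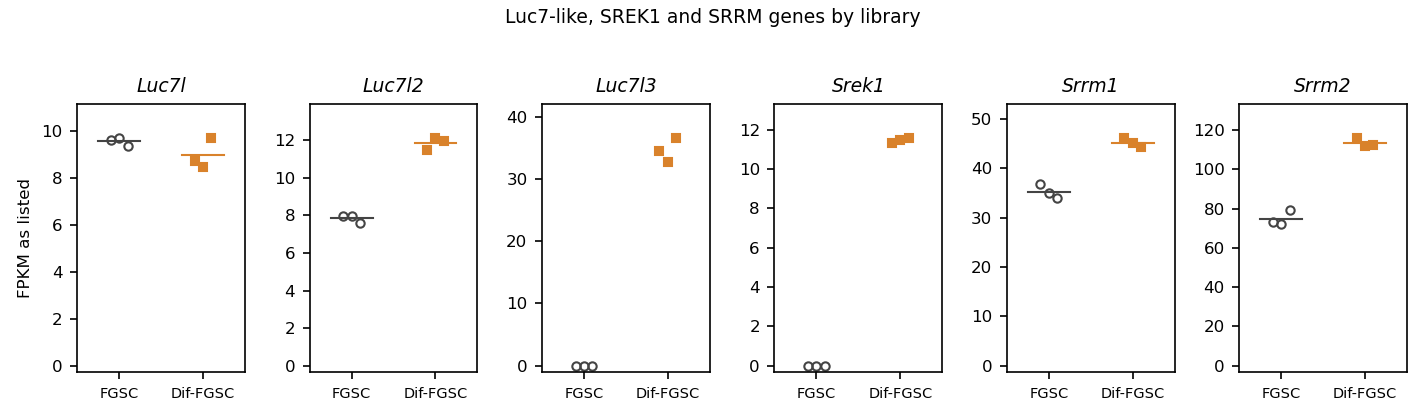
FPKM as listed (vertical axes, each from about 0 on its own scale) of the Luc7-like, SREK1 and SRRM genes in each library; open circles are FGSC, filled squares Dif-FGSC, and lines are means, left out for genes listed at 0. Luc7l2, Srrm1 and Srrm2 show separate groups, Luc7l overlaps, and Luc7l3 and Srek1 are at 0 in every FGSC library.

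Srrm1 and Srrm2 encode large arginine-serine matrix proteins that bridge SR proteins and the core spliceosome, and Srrm2 is also a scaffold of nuclear speckles. Srrm2 was at 73.5, 72.2 and 79.1 FPKM in FGSC and 116, 112 and 112 FPKM in Dif-FGSC, a 1.51-fold rise with no overlap (log2 difference 0.59, SE 0.039, limma adjusted p = 1.15e-05). Srrm1 was at 36.8, 35.0 and 34.1 FPKM in FGSC and 46.2, 45.3 and 44.4 FPKM in Dif-FGSC, a 1.28-fold rise (log2 difference 0.35, SE 0.036, limma adjusted p = 1.07e-04). Srrm3 and Srrm4, which drive neuronal microexons, were not tested, with at most 0.0259 FPKM for Srrm3 and 0 in every library for Srrm4. The noncoding Srrm4os was also at 0 throughout.

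Among 13 PRPF genes, 3 were higher, 5 lower and 5 not called. All 3 higher genes encode proteins of the U4/U6.U5 tri-snRNP. Prpf8, which cradles the catalytic RNA, was at 106, 111 and 112 FPKM in the FGSC libraries and 166, 166 and 162 FPKM in the Dif-FGSC libraries. Its groups were widely separated, with a 1.502-fold ratio (log2 difference 0.58, SE 0.029, limma adjusted p = 3.28e-06). Prpf4, a U4/U6 protein, rose from 14.9 ± 0.611 to 19.0 ± 0.274 FPKM (0.33 on the log2 scale, limma adjusted p = 1.95e-04), and Prpf6, which bridges U5 with U4/U6, from 28.1 ± 0.362 to 34.0 ± 1.64 FPKM (0.27 on the log2 scale, limma adjusted p = 6.64e-04). The other tri-snRNP genes in the family were not called, Prpf3 at 10.4 ± 0.256 FPKM in FGSC and 9.96 ± 0.397 FPKM in Dif-FGSC (adjusted p = 0.287) and Prpf31 at 27.5 ± 1.24 FPKM in FGSC and 26.5 ± 0.213 FPKM in Dif-FGSC (adjusted p = 0.295). Both were called lower with quantile normalization (adjusted p = 0.0148 and 0.0266). Genes for other tri-snRNP proteins outside the symbol rule, LSm genes aside, went both ways. Snrnp200, Ddx23 and Sart1 were higher, Snrnp40, Snrnp27, Usp39 and Ppih were lower, and Eftud2 and Txnl4a were not called. Of the 8 remaining PRPF genes, 5 were lower and 0 higher. Prpf38b, a paralogue of the activation factor Prpf38a, was at 47.0, 45.0 and 45.0 FPKM in FGSC and 34.6, 34.8 and 35.9 FPKM in Dif-FGSC (log2 difference -0.37, SE 0.032, limma adjusted p = 4.38e-05). The kinase Prpf4b, which acts before activation, was at 39.9, 39.1 and 40.5 FPKM in FGSC and 31.0, 31.2 and 31.1 FPKM in Dif-FGSC (log2 difference -0.35, SE 0.028, limma adjusted p = 3.17e-05); neither gene overlapped between groups. Prpf38a fell from 55.0 ± 2.36 to 44.7 ± 1.4 FPKM (-0.29 on the log2 scale, limma adjusted p = 4.67e-04), and Prpf39, the counterpart of a yeast U1 protein, had a ratio of 0.829. Prpf19, the ubiquitin ligase of the complex that bears its name, was at 15.1 ± 0.198 FPKM in FGSC and 15.0 ± 0.356 FPKM in Dif-FGSC (adjusted p = 0.748), and was called lower with the length trend removed (-0.20, adjusted p = 0.00202). Prpf18, a factor of the last step, was at 7.50 ± 0.232 FPKM in FGSC and 7.30 ± 0.164 FPKM in Dif-FGSC (adjusted p = 0.452; lower with quantile normalization, adjusted p = 0.0325), and Prpf40b at 2.70 ± 0.0604 FPKM in FGSC and 2.81 ± 0.181 FPKM in Dif-FGSC (adjusted p = 0.502).

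The SR protein genes were 5 lower, 1 higher and 4 not called among 10 tested. Srsf6, which binds exonic enhancers, was the gene that rose, at 102, 102 and 101 FPKM in the FGSC libraries and 136, 136 and 135 FPKM in the Dif-FGSC libraries (log2 difference 0.41, SE 0.023, limma adjusted p = 5.43e-06). Both groups were narrow and the ratio of means was 1.34. Srsf3, the smallest SR protein and a link between splicing and RNA export, was at 101, 104 and 97.5 FPKM in FGSC and 80.9, 81.2 and 84.1 FPKM in Dif-FGSC, and fell by 18.6% (log2 difference -0.29, SE 0.033, limma adjusted p = 1.53e-04). Srsf10, a regulator that represses general splicing when dephosphorylated, was at 20.8, 19.2 and 18.8 FPKM in FGSC and 15.8, 16.03 and 16.4 FPKM in Dif-FGSC (log2 difference -0.27, SE 0.043, limma adjusted p = 0.00107). In both genes the groups did not overlap. The remaining lower genes were Srsf7, Srsf5 and Srsf11, with ratios of 0.838, 0.844 and 0.863. Srsf2, which recognizes exonic sequences and is mutated in human blood cancers, had the highest listed value of the family, in which several other genes have values averaged over transcripts. It was at 352, 349 and 309.8 FPKM in FGSC and 364, 362 and 351 FPKM in Dif-FGSC and was not called (adjusted p = 0.134). FGSC replicate 3 lay below the other FGSC libraries in that gene and the groups overlapped; Srsf2 was called higher with quantile normalization (0.30, adjusted p = 0.00113) and with the length trend removed (0.14, adjusted p = 0.0362). Srsf1, Srsf4 and Srsf9 were not called, with ratios of 1.01, 0.984 and 1.02; with the length trend removed Srsf1 was lower (adjusted p = 0.042) and Srsf9 higher (adjusted p = 0.0404). Srsf12 was not tested, with 0.00866 FPKM in a single library and 0 in the others.

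The hnRNP genes carried the most falls, with 14 lower, 3 higher and 3 not called among 20 tested and a median log2 difference of -0.24. Hnrnpa2b1, an abundant A/B-type protein that binds RNA along introns and in microRNA precursors, was at 299.6, 285 and 292 FPKM in the FGSC libraries and 209.8, 216 and 219.7 FPKM in the Dif-FGSC libraries. Its mean fell by 26.3%, with no overlap (log2 difference -0.44, SE 0.03, limma adjusted p = 1.35e-05). Hnrnph2, an H/F-type protein that binds runs of G, had the largest fall, at 15.7, 16.1 and 17.1 FPKM in FGSC and 10.8, 11.2 and 11.8 FPKM in Dif-FGSC (log2 difference -0.50, SE 0.047, limma adjusted p = 7.14e-05). Its relative Hnrnph3 was at 7.04, 6.47 and 7.53 FPKM in FGSC and 4.79, 4.99 and 5.03 FPKM in Dif-FGSC (log2 difference -0.43, SE 0.055, limma adjusted p = 3.16e-04), and the H/F genes Hnrnph1 and Hnrnpf were lower too, with ratios of 0.807 and 0.82. All 4 H/F genes were therefore lower. Their listed values, like those of every lower hnRNP gene, appear to be means over transcripts, as described below.

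Hnrnpa1, the classical repressor of exon inclusion, was at 131, 121 and 102 FPKM in FGSC and 84.6, 93.5 and 82.8 FPKM in Dif-FGSC (log2 difference -0.43, SE 0.089, limma adjusted p = 0.00399); its FGSC values were widely spread, with replicate 3 the lowest, but stayed above all Dif-FGSC values. Hnrnpa1 and Hnrnpa3, whose ratio was 0.739, have many processed copies in the genome, and the pseudogene Hnrnpa1l2-ps2 that the rule also selects was not tested, with 0.126, 0.392 and 0.0493 FPKM in FGSC and 0.114, 0.35 and 0.0432 FPKM in Dif-FGSC. Hnrnpc, which binds runs of U, fell from 12.5 ± 0.246 to 9.25 ± 0.179 FPKM (-0.40 on the log2 scale, limma adjusted p = 4.63e-05), and Hnrnpm, a regulator of exon use, from 107 ± 0.929 to 85.2 ± 1.22 FPKM (-0.32 on the log2 scale, limma adjusted p = 2.59e-05). The other lower genes, Hnrnpd, Hnrnpr, Hnrnpll, Hnrnpdl and Hnrnpk, had ratios from 0.833 to 0.896. Hnrnpa0, which binds AU-rich RNA, was the hnRNP gene with the largest rise, at 203, 198 and 178 FPKM in FGSC and 245, 249 and 221 FPKM in Dif-FGSC (log2 difference 0.30, SE 0.061, limma adjusted p = 0.00338). Hnrnpul1 rose from 26.1 ± 0.435 to 30.2 ± 0.689 FPKM (0.20 on the log2 scale, limma adjusted p = 8.96e-04), and Hnrnpul2 from 38.9 ± 0.547 to 43.0 ± 0.603 FPKM (0.14 on the log2 scale, limma adjusted p = 0.00296); the difference of Hnrnpul2 was -0.00145 (adjusted p = 0.967) with the length trend removed. Hnrnpu, a nuclear scaffold protein, lay at the threshold with 146 ± 5.36 FPKM in FGSC and 138 ± 1.22 FPKM in Dif-FGSC (adjusted p = 0.05004). Hnrnpu was called lower under several alternatives, among them median-ratio scaling (-0.12, adjusted p = 0.0167), leaving out FGSC replicate 3 (-0.11, adjusted p = 0.00978) and removing the length trend (-0.30, adjusted p = 6.17e-04). Hnrnpab and Hnrnpl were not called, with ratios of 0.978 and 1.00, but Hnrnpab was lower without FGSC replicate 3 (adjusted p = 0.0185) and Hnrnpl higher with quantile normalization (adjusted p = 0.0227).

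The way the table was made bears on the hnRNP levels. The listed value of a gene with several annotated transcripts appears to be a mean over them, since it carries more significant digits than a single estimate. Of genes with a mean of at least 1 FPKM, 99.7% of the 4765 with 1 curated RefSeq transcript had at most 6 significant digits, against 19.3% of the 4372 with 2 or more. Values of Hnrnpc behaved as a sum divided by 9, those of Hnrnpf and Luc7l2 as one divided by 7, and those of U2af1, Hnrnpa2b1 and Hnrnpul1 as one divided by 3. For such genes the listed level is below the level of the whole gene, and a change in a minor transcript weighs as much as its FPKM. Of the 34 tested splicing factor genes with more than 6 digits, 3 were higher, 21 lower and 10 not called. The 38 with at most 6 digits gave 13 higher, 15 lower and 10 not called. The excess of lower over higher calls thus lay mostly among genes with more than 6 digits. All tested genes were not split by digits, so no share over all genes stands beside these counts. Every lower hnRNP gene and every lower SR gene had more than 6 digits. The tested hnRNP genes with at most 6 digits were Hnrnpa0 and Hnrnpul2, both higher, and Hnrnpl, not called. The falls of these 2 families thus rest on values that appear to be averaged. Listed levels and their sums over families carry that limit. Several genes named outside the symbol rule also had more than 6 digits and carry it too. Among them are Sf1, Cwc22, Cherp, Lsm2, Clk1, Clk2, Clk4, Tnpo3, Gemin5 and Upf1.

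Transcript length and base composition went along with the differences. Over 5 equal classes of increasing length of the longest coding transcript, the median log2 difference of all tested genes rose from -0.10 through -0.04, 0.03 and 0.09 to 0.20. In the shortest class, up to 1735 bp, 10 of 16 splicing factor genes were lower and 0 higher, where 43.5% of all genes were lower and 17.8% higher. In the longest, from 4984 bp, 5 of 13 were lower and 5 higher, where 15.1% of all genes were lower and 57.6% higher. The median length was 4025 bp for the 14 higher genes above 0 in every library, 2685 bp for the 36 lower genes and 2524 bp for the 20 not called. Median GC content was 51.5%, 44.6% and 50.5% in the same order. Across genes, which are not independent replicates, Spearman's rho of the difference was 0.29 with length and 0.47 with GC content over 70 splicing factor genes, and 0.31 and 0.25 over 9120 tested genes. When the trend over length was removed from all genes, 17 splicing factor genes were higher and 40 lower, with a median of -0.17 against -0.0025 for all genes. Of the 9120 genes in that fit, 2927 were higher and 2853 lower. This alternative was chosen after the data were seen.

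**Figure D4:**
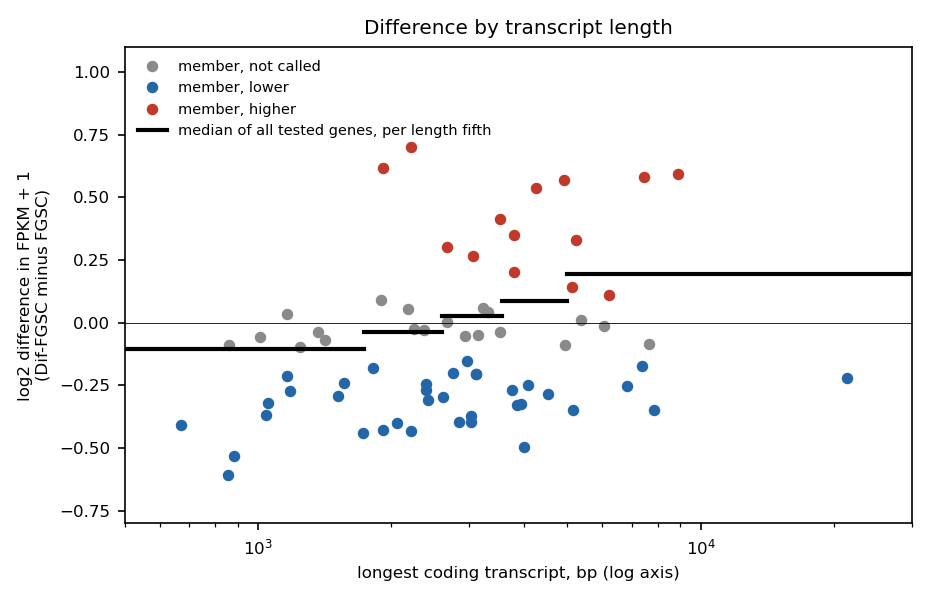
Log2 difference in FPKM + 1 (vertical axis, Dif-FGSC minus FGSC) of each splicing factor gene above 0 in every library against the length of its longest coding transcript in bp (log axis), coloured by call, with black bars for the median of all tested genes in each of 5 length classes. The black bars climb from -0.10 to 0.20 with length, and all blue points lie below the bar of their class.

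Spread within groups was small. The median coefficient of variation of splicing factor genes was 3.04% in FGSC and 2.09% in Dif-FGSC, against 4.65% and 3.43% over all genes. The sets were not matched for expression level, so this difference is not shown to be a trait of splicing factor genes. FGSC replicate 3 gave the lowest FGSC value for 39 of the 71 splicing factor genes never at 0 (54.9%, against 32.5% of all genes), and Dif-FGSC replicate 3 gave the highest Dif-FGSC value for 39 (54.9%, against 33.3%). Without FGSC replicate 3, 16 splicing factor genes were higher and 40 lower, where 3390 of all 9162 tested genes were higher and 2573 lower. Summed over all 77 genes, the level was 6811, 6747 and 6603 FPKM in FGSC and 6213, 6275 and 6259 FPKM in Dif-FGSC, a ratio of 0.93 with no overlap. The total FPKM of all genes was lower as well, with a ratio of 0.945. As a share of that total, the splicing factor genes made up 1.81%, 1.78% and 1.76% in FGSC and 1.75%, 1.76% and 1.76% in Dif-FGSC, a ratio of 0.984. The hnRNP genes summed to 1721 ± 58.2 FPKM in FGSC and 1568 ± 15.1 FPKM in Dif-FGSC, and the SR genes to 831 ± 37.2 and 852 ± 7.04 FPKM (SD, n = 3).

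Other genes of the splicing pathway, outside the symbol rule, gave mixed counts. Over all tested genes 36.5% were higher and 28.6% lower, and some of the counts in this and the next paragraph lay near those shares. Of 49 other core spliceosome genes, 14 were higher and 21 lower, with a median of -0.08. Cwc22, which loads the exon junction complex, rose from 4.27 ± 0.222 to 7.05 ± 0.2 FPKM (0.61 on the log2 scale, limma adjusted p = 2.29e-05), and Cherp, a U2-associated protein, from 16.1 ± 1.47 to 24.3 ± 0.292 FPKM (0.56 on the log2 scale, limma adjusted p = 1.11e-04). The 10 LSm genes, most of them of the LSm ring that is the U6 counterpart of the Sm ring, were 2 higher and 6 lower, with a median of -0.15. Lsm1 (higher), Lsm10 (lower) and Lsm11 (not called) are not part of the U6 ring. Lsm8, which defines the nuclear ring, fell from 76.9 ± 0.746 to 52.6 ± 0.909 FPKM (-0.54 on the log2 scale, limma adjusted p = 3.32e-06), while Lsm2 rose from 21.9 ± 1.02 to 28.7 ± 0.432 FPKM (0.38 on the log2 scale, limma adjusted p = 1.10e-04). Among 14 spliceosomal helicases 8 were higher and 4 lower, with Dhx8, which releases the spliced RNA, rising from 22.9 ± 0.454 to 28.6 ± 0.695 FPKM (0.31 on the log2 scale, limma adjusted p = 1.21e-04) and Dhx9 falling from 129.5 ± 2.89 to 105 ± 1.07 FPKM (-0.29 on the log2 scale, limma adjusted p = 5.89e-05).

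Among 11 genes for kinases linked to SR proteins or splicing and for an import factor of SR proteins, 6 were higher and 3 lower. Cdk12, Cdk13 and Dyrk1a, kinases not dedicated to SR proteins, were among the higher genes, and Cdk11b was among the lower. Clk4, a nuclear kinase that phosphorylates SR proteins, rose from 2.72 ± 0.273 to 5.67 ± 0.234 FPKM (0.84 on the log2 scale, limma adjusted p = 1.94e-05), and Tnpo3, the importin that carries them into the nucleus, from 14.6 ± 0.34 to 26.3 ± 0.524 FPKM (0.81 on the log2 scale, limma adjusted p = 1.54e-06). The Clk4 relatives Clk1 and Clk2 were lower, Clk1 falling from 15.2 ± 1.29 to 10.6 ± 0.487 FPKM (-0.48 on the log2 scale, limma adjusted p = 3.37e-04) and Clk2 from 8.75 ± 0.766 to 6.01 ± 0.959 FPKM (-0.48 on the log2 scale, limma adjusted p = 0.00452), and Clk3 was not called at 16.3 ± 0.65 FPKM in FGSC and 15.7 ± 0.147 FPKM in Dif-FGSC (adjusted p = 0.255). These 3 were named after their values were seen. Alternative splicing regulators outside the rule gave 22 higher and 25 lower of 57 tested, 16 and 27 with quantile normalization, and 12 and 29 with the length trend removed. Khsrp, a KH-domain protein, rose from 46.8 ± 4.17 to 79.9 ± 1.42 FPKM (0.76 on the log2 scale, limma adjusted p = 2.41e-05) and Nova1, best known from neurons, fell from 1.64 ± 0.421 to 0.549 ± 0.0664 FPKM (-0.76 on the log2 scale, limma adjusted p = 7.92e-04). Of 15 genes for snRNP assembly, which loads Sm proteins onto RNA, 3 were higher, 2 lower and 10 not called, and the higher genes included Gemin5, which recognizes the small nuclear RNA, from 6.55 ± 0.139 to 9.40 ± 0.199 FPKM (0.46 on the log2 scale, limma adjusted p = 2.80e-05), and Wdr77, a partner of the methyltransferase that modifies Sm proteins, from 49.2 ± 0.448 to 65.6 ± 1.28 FPKM (0.41 on the log2 scale, limma adjusted p = 1.36e-05). Of 10 genes of the minor spliceosome, 2 were higher and 2 lower, with the U11/U12 protein genes Snrnp35 falling from 8.97 ± 0.965 to 4.502 ± 0.746 FPKM (-0.86 on the log2 scale, limma adjusted p = 2.76e-04) and Snrnp48 from 15.0 ± 1.92 to 10.9 ± 0.347 FPKM (-0.41 on the log2 scale, limma adjusted p = 0.00327). Of 14 tested exon junction and nonsense-mediated decay genes, 6 were higher and 5 lower; the decay helicase Upf1 rose from 14.7 ± 0.61 to 22.4 ± 0.449 FPKM (0.57 on the log2 scale, limma adjusted p = 1.35e-05) and Smg9, a subunit of the kinase complex that activates it, from 6.48 ± 0.787 to 12.5 ± 0.502 FPKM (0.86 on the log2 scale, limma adjusted p = 5.07e-05).

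The promoters of splicing factor genes shared letters that the symbol rule did not use. RefSeq windows of 300 bases, from 250 before to 50 after the start site, existed for 66 of the 77 genes and gave 81 windows for 62 tested genes. The ETS letters CCGGAAG, searched on both strands, stood in 32.1% of these windows, against 8.86% of 32851 windows of all genes. The GC box GGGCGG stood in 65.4% against 35.7%, CCAAT in 48.1% against 37.4%, the E-box CACGTG in 13.6% against 7.15% and TATAAA in 7.41% against 13.6%. The windows of all genes came from 27025 genes with no filter on expression, whereas the splicing factor genes compared had all passed that filter. Whether these shares differ from those of other expressed genes was not tested. The share with the ETS letters was 26.7% in windows of higher genes, 35.7% in those of lower genes and 29.2% in those of genes not called. The E-box stood in 0 of 15 windows of higher genes, 6 of 42 of lower genes and 5 of 24 of genes not called. These are matches of letters and not binding sites, windows of the same gene can overlap, and the classes were not compared by a test.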

How the data were processed

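Poly(A) RNA of 6 mouse cell samples was sequenced, and the authors deposited FPKM values, listed by gene symbol (rows) and library (columns). Per the submitters' processing notes, HISAT2 4.8.2, Cufflinks 2.2.1 and the build mm9 were used; the sources used here give neither annotation nor strand setting. Columns with the prefix con were read as control and assigned to FGSC, so every direction rests on that reading. Of 24674 rows, 2 duplicates were dropped. Of the 24672 symbols left, 24574 matched RefSeq, which gave transcript numbers and promoters. Lengths and GC content were those of the longest coding transcript in GENCODE. No coordinates were taken from the table.

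Genes with a mean of at least 1 FPKM were tested with limma 3.58.1 in R 4.3.3 on log2(FPKM + 1), by eBayes with the trend option, with Benjamini-Hochberg adjustment over 9162 genes and calls at adjusted p under 0.05. Log2 differences are on that scale and understate the change of low genes. A value after ± is the SD of 3 libraries. The script was tested on simulated data. Steps between low values of 3015 genes with 1 transcript implied 27.3, 21.8 and 17.2 M fragments in FGSC and 22.5, 19.4 and 19.7 M in Dif-FGSC, with 75.3% to 79.6% of low values within 0.1 of a whole number. A floor of 3 fragments for a transcript of 2000 bp was 0.0549 to 0.0872 FPKM and covers counting error only.

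The genes and lists were chosen with earlier results of these data known. The naming rule took genes listed at 0 with a mean of at least 1 FPKM, up to 3 called genes with the largest difference and the gene with the highest mean per family, and up to 2 called genes per other list. The other splicing factor genes named were named after their values were seen. The same holds for Phf5a, Sf1, Clk1, Clk2, Clk3, Lsm1, Lsm10, Lsm11, Cdk11b, Cdk12, Cdk13 and Dyrk1a. It also holds for Snrnp200, Ddx23, Sart1, Snrnp40, Snrnp27, Usp39, Ppih, Eftud2 and Txnl4a. Alternatives changed the pseudocount, the filter, the scaling, the trend, the genes listed at 0, the replicate block and single libraries. A planned description of protein sequences was not run, because no protein table was used here. The values of 1 gene are not reported here, though the counts include it.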

Additional observations from a re-analysis of the deposited data

How the results depend on the processing

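Of the 52 called splicing factor genes, 49 kept call and direction under every one of the 15 alternatives that gave a value; the exceptions were Snrpb, Sf3b1 and Hnrnpul2. The cause was not tested for these or any change below. The median log2 difference was -0.088 with no filter on low values, -0.16 with median-ratio scaling, -0.16 without genes listed at 0, -0.17 with the length trend removed and -0.158 to -0.115 with single libraries left out. The summed Dif-FGSC level was 6203 FPKM without genes listed at 0 and 6166 FPKM with median-ratio scaling.

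With quantile normalization the SR genes had 2 higher, U2AF 1 higher, Luc7-like 1 lower, Snrp 1 higher and PRPF 8 lower. Removing the length trend gave 3 SR higher, 1 U2AF higher and 1 Luc7-like lower, and leaving out single libraries gave 0 to 1 Luc7-like lower. Without genes listed at 0 there was 1 Luc7-like gene higher.

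For the other lists, quantile normalization gave 7 core genes higher, 1 LSm higher, 1 minor spliceosome higher and 5 lower, and 6 assembly genes lower. Removing the length trend gave 12 alternative regulators, 9 core genes, 4 helicases and 6 assembly genes higher, and 3 LSm and 1 assembly gene lower. Median-ratio scaling gave 1 minor spliceosome gene higher, 4 lower and 4 assembly genes lower. No filter gave 1 minor spliceosome gene higher and 1 assembly gene lower. A mean of at least 5 FPKM left 1 SR kinase or import gene higher of the 6 then tested. Leaving out single libraries gave 1 to 2 minor spliceosome genes higher and 0 to 3 assembly genes lower.

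Median-ratio scaling moved the median of all genes from 0.029 to -0.0036 and their calls to 3030 higher and 2990 lower, and quantile normalization to -0.022 with 2789 higher and 3185 lower. Same-numbered libraries did not deviate together throughout (correlations 0.131, 0.0123 and 0.174), and FGSC replicate 2 correlated best with Dif-FGSC replicate 1 (0.106), so the numbers were not taken as pairs. With the replicate number as a block, 3241 genes were higher and 2557 lower, with 16 and 36 splicing factor genes, 0 of whose calls changed, and 1 minor spliceosome gene was higher. Depth limits genes near the floor, such as Srsf12 and Srrm3.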
